A study of Mus musculus with 8 samples.

Results

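The genes described here are 50 genes of the cell cycle and of DNA replication, measured by RNA-seq in mouse liver. They were taken by symbol from the 55487 genes of the deposited table, and no symbol was repeated. By role they are 8 genes of the G1 phase (D and E cyclins and the kinases they bind), 3 transcription factors (E2f1, Foxm1 and Mybl2), 14 S phase genes and 25 genes of G2 and mitosis. All 50 identifiers carried the same symbol in the GENCODE M21 annotation of the GRCm38 build.

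The 8 libraries came from liver of male wild-type C57BL/6N mice. Mice on the normal diet ate chow and drank tap water, whereas the western diet joined a high-fat feed to a fructose and glucose drink. Each diet was combined with a weekly injection into the peritoneum of either carbon tetrachloride (CCl4), a solvent that injures hepatocytes, or corn oil, its vehicle. The groups held 3 libraries for normal diet + oil, 2 for western diet + oil, 2 for normal diet + CCl4 and 1 for western diet + CCl4. The sources used here do not give the CCl4 dose, the length of treatment, the age of the mice or the time between the last injection and sampling. No source says that the libraries came from separate animals, so the p-values measure the spread between libraries, which may be technical. In whole liver, fewer cells of a type and less RNA per cell cannot be told apart.

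In adult liver most hepatocytes rest outside the cycle and re-enter it after injury or loss of tissue. D cyclins with Cdk4 and Cdk6, then E cyclins with Cdk2, carry a cell through G1 by phosphorylating Rb proteins, which frees E2F factors to switch on replication genes. Later, the B-Myb (Mybl2) and Foxm1 factors, acting with the MuvB complex at CHR elements, drive the genes of G2 and mitosis, often beside CCAAT boxes bound by NF-Y.

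Promoters show how the roles differ in sequence, so 9 are printed here, from 170 bases before to 30 bases after the RefSeq start, 5′ to 3′ on the gene's own strand (RefSeq table, GRCm38.p6). Capitals mark each match to the motifs searched on both strands, which were CCAAT, the CHR words TTTGAA and TTCGAA, and the E2F words TTTCCCGC and TTTGGCGC. Cdk4 (chr10:127063365-127063564, plus strand), Ccnd3 (chr17:47504881-47505080, plus), Pcna (chr2:132253151-132253350, minus), Tk1 (chr11:117825985-117826184, minus), Cdca3 (chr6:124830006-124830205, plus) and Birc5 (chr11:117849067-117849266, plus) are the members of the G1, S and mitotic roles with the highest mean level that have a promoter in the table. Mcm6 (chr1:128359676-128359875, minus), Ccnb2 (chr9:70421525-70421724, minus) and Cdk1 (chr10:69352883-69353082, minus) were chosen after their values were seen, because they carry E2F or CHR words.
Cdk4: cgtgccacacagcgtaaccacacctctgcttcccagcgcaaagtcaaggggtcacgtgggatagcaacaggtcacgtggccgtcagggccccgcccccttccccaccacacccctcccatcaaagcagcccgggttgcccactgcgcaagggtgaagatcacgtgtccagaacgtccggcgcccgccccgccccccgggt
Ccnd3: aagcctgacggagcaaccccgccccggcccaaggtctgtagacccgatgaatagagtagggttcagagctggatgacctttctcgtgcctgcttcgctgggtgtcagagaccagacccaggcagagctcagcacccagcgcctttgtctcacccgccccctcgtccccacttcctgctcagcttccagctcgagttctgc
Pcna: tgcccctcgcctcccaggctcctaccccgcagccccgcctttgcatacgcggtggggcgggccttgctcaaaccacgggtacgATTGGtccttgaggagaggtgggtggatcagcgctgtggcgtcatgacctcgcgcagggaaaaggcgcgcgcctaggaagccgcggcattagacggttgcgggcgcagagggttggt
Tk1: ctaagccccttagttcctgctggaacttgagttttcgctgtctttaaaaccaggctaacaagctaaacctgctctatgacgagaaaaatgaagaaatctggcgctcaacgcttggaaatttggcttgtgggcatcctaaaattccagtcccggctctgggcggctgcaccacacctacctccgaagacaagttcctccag
Mcm6: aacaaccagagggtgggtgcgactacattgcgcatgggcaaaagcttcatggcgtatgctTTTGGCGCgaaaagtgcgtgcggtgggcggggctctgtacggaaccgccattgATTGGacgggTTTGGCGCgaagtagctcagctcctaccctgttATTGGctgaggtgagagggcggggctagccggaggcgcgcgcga
Cdca3: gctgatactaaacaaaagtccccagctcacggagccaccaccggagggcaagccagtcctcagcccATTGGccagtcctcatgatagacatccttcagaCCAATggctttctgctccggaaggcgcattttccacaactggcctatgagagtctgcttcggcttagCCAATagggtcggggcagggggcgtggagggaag
Birc5: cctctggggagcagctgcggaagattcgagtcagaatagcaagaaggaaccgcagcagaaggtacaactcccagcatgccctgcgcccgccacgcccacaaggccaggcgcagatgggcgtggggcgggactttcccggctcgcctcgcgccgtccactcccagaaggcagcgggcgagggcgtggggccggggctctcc
Ccnb2: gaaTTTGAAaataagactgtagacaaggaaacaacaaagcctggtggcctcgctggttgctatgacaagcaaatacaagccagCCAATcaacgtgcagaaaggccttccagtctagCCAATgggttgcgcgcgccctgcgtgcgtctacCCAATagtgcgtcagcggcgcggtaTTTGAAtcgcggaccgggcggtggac
Cdk1: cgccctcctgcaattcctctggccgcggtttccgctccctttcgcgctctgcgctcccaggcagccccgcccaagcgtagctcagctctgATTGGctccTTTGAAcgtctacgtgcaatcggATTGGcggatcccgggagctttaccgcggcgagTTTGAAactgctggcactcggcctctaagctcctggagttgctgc

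The table held 41 promoters of 300 bases for 38 of the 50 genes, from 250 bases before to 50 after the start. Of the 20 mitotic promoters, 17 (85%) held a CHR word and 18 (90%) a CCAAT word, against 19.2% and 37.4% of all 32851 promoters in the table. Both words stood together in 17 of these 20, against 7.52% of all promoters. None of the 20 held either E2F word, which 1.56% of all promoters hold. Of the 13 S phase promoters, 6 (46.2%) held an E2F word, 9 (69.2%) a CCAAT word and 2 (15.4%) a CHR word. Among the 6 G1 promoters 2 held CCAAT, 1 held E2F and 0 held CHR, and the 2 promoters of transcription factors held none of the words. In Cdk1 the CHR words began 71 and 15 bases before the start, and in Ccnb2 they began at -167 and at base 5 after it. Cdca3 has its CHR word 31 bases after the start, just past the printed end, and Birc5 has no match. Matches of different motifs overlapped in 1 of the 41 promoters. A match describes the letters only and is not a bound site.

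One library stood apart before any test. Normal diet + CCl4 library 1 had the highest value of all 8 libraries for 48 of the 50 genes (96%), whereas 37.4% of the 11514 genes tested peaked there. The exceptions were Ccnd2 and Ccnd3, highest in the western diet + oil libraries. All 50 genes were above 0 in library 1, and 9 genes were above 0 there alone. Library 2 of the same group listed 18 of the 50 at 0, of which 15 were mitotic genes. Levels are in FPKM (fragments per kilobase of transcript, scaled to the size of the library), and the lowest value above 0 in a library lay between 0.252 and 0.318, so a listed 0 means a level below about that and not absence. The files give no counts, so the depth of the libraries is unknown. Summed FPKM per library ran from 514832 to 612747, and 12531 to 14843 genes were above 0, the most in library 1.

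**Figure D1:**
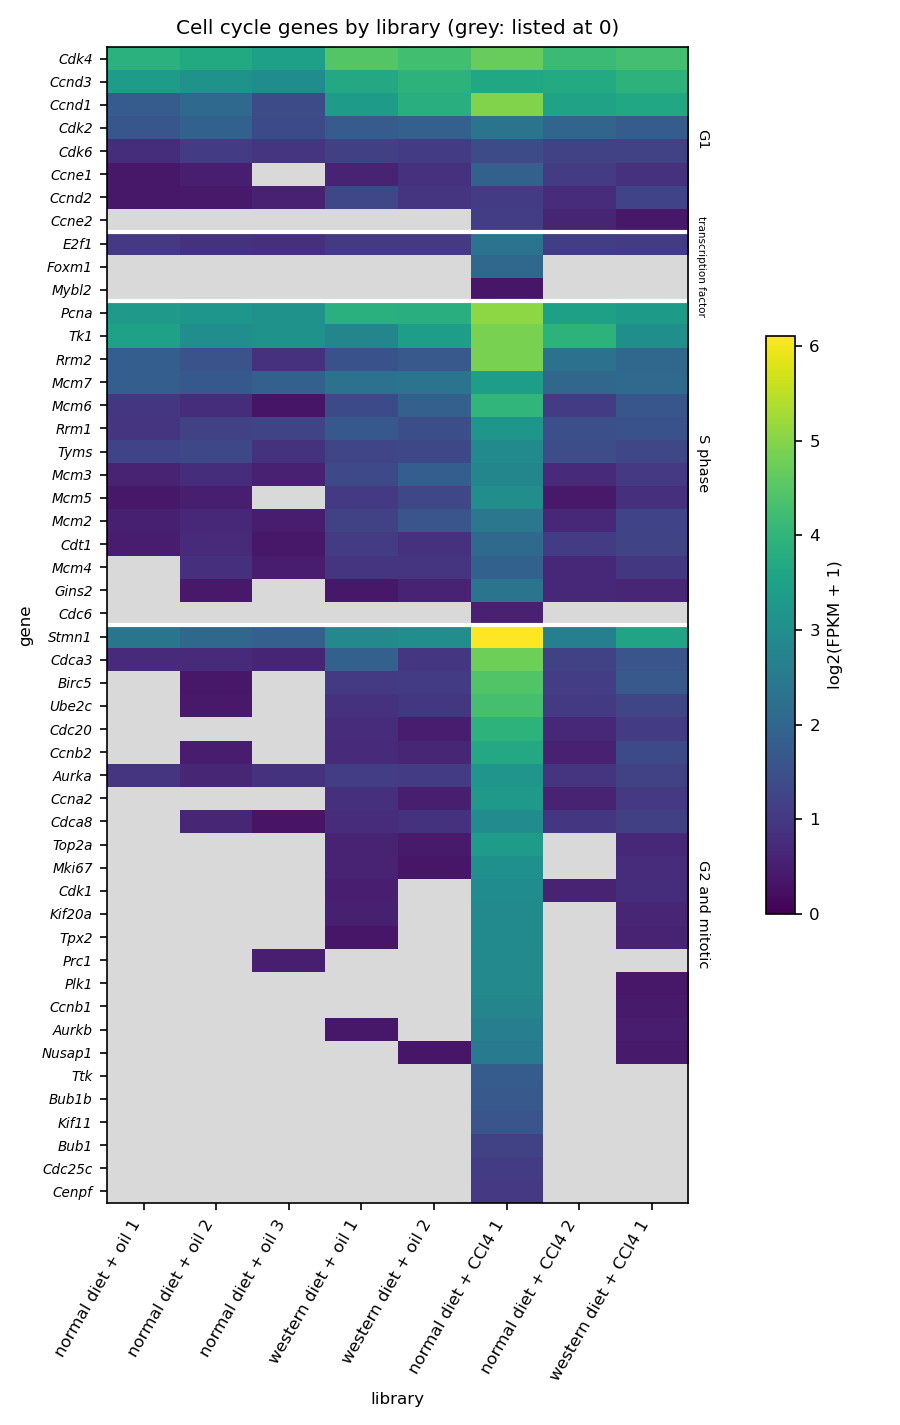
Heat map of the 50 genes (rows, by role and mean level) in the 8 libraries (columns), as log2(FPKM + 1). Grey cells are listed at 0. The column of normal diet + CCl4 library 1 is the only one filled throughout, and it is the highest for 48 of the 50 genes.

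Of the 8 G1 genes, all but Ccne2 were above 0 in at least 1 library of every group. Cyclin D1 (Ccnd1, chr7:144929931-144939925, minus strand), the growth factor-responsive cyclin that starts G1, was 2.45, 3.26 and 1.62 FPKM in the 3 normal diet + oil libraries. It was 9.38 and 13.3 in western diet + oil, 29.8 and 10.4 in normal diet + CCl4 and 11.4 in western diet + CCl4. Every treated library lay above every control library, and the 4 treated libraries other than CCl4 library 1 lay between 9.38 and 13.3. Cdk4, the kinase that D cyclins activate, was 13.8, 12.1 and 9.83 FPKM in the controls. In the treated libraries it was 21.1 and 18.3 with the diet, 24.9 and 17.0 with CCl4 and 18.5 with both. The Cdk4 groups did not overlap with the controls, and the 2 single treatments overlapped with each other. Ccnd3, the most abundant D cyclin in the controls, was 9.44, 7.82 and 6.82 FPKM there, 11.9 and 14.4 with the diet, 11.5 and 12.4 with CCl4 and 14.3 with both. As deposited, it was thus higher in all 5 treated libraries, and CCl4 library 1 was the lowest of them.

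Ccnd2, the remaining D cyclin, reached at most 1.47 FPKM (western diet + oil library 1), against 0.304 to 0.467 in the controls. Cdk6, the other partner of D cyclins, was 0.739, 1.11 and 0.916 FPKM in the controls, 1.24 and 1.12 with the diet, 1.61 and 1.28 with CCl4 and 1.28 with both. Cdk2, the partner of E and A cyclins, was 2.13, 2.71 and 1.60 FPKM in the controls, 2.38 and 2.69 with the diet, 4.11 and 2.97 with CCl4 and 2.40 with both. For Cdk2 the diet libraries and the library with both treatments fell inside the control range. Cyclin E1 (Ccne1), which acts at the G1 to S boundary, was 0.305, 0.420 and 0 FPKM in the controls, 0.536 and 0.820 with the diet, 2.75 and 1.12 with CCl4 and 0.832 with both. Ccne2, its paralog, was listed at 0 in all 5 oil libraries, at 1.17 and 0.543 with CCl4 and at 0.314 with both. For Ccne1, Ccne2 and Cdk2 both normal diet + CCl4 libraries lay above the other 6 as deposited.

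Among the transcription factors, E2f1, an activator of replication genes, was detected everywhere. Its values were 1.01, 0.853 and 0.779 FPKM in the controls, 1.04 and 1.03 with the diet, 3.98 and 1.18 with CCl4 and 1.11 with both. Foxm1, the forkhead activator of mitotic genes, was 3.14 FPKM in CCl4 library 1 and 0 in the other 7 libraries. Mybl2 (B-Myb) was 0.301 FPKM in CCl4 library 1, near the lowest value listed, and 0 in the other 7.

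The S phase genes were low but mostly present in control liver and peaked in CCl4 library 1 in all 14 cases. Pcna, the sliding clamp of DNA polymerases, was 8.72, 8.24 and 7.66 FPKM in the controls, 13.6 and 13.3 with the diet, 32.8 and 10.1 with CCl4 and 8.99 with both. The diet libraries were close to each other and above the controls, and the library with both treatments was not above CCl4 library 2. Thymidine kinase (Tk1), of the nucleotide salvage route, was 10.3, 6.99 and 7.65 FPKM in the controls, 5.95 and 9.57 with the diet, 28.4 and 14.5 with CCl4 and 7.20 with both. Unlike those of Pcna, the diet libraries of Tk1 overlapped with the controls, while, as deposited, both CCl4 libraries exceeded the controls for both genes.

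Rrm2, the regulated subunit of ribonucleotide reductase, was 2.53, 1.95 and 0.816 FPKM in the controls, 1.90 and 2.28 with the diet, 28.3 and 3.86 with CCl4 and 3.15 with both. Its diet values lay within the control range. The helicase subunit Mcm7 was 2.55, 2.21 and 2.65 FPKM in the controls, 3.89 and 4.04 with the diet, 9.52 and 3.06 with CCl4 and 3.25 with both. Mcm6, another of the 6 subunits of the MCM helicase ring, was 0.950, 0.737 and 0.272 FPKM in the controls, 1.57 and 2.66 with the diet, 15.2 and 1.09 with CCl4 and 2.08 with both. For Mcm2, Mcm3, Mcm4 and Mcm5, CCl4 library 2 fell inside the control range (0.598, 0.693, 0.621 and 0.327 FPKM), while both diet libraries were above every control library. The MCM genes thus had higher values in the western diet libraries than in CCl4 library 2. The remaining S phase genes were the reductase subunit Rrm1 and thymidylate synthase Tyms, at 8.21 and 6.45 FPKM in CCl4 library 1, the licensing factors Cdt1 and Cdc6, at 3.23 and 0.464, and the helicase cofactor Gins2, at 4.10. Cdc6 was listed at 0 in the other 7 libraries.

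The G2 and mitotic genes differed most between libraries. All 25 were highest in CCl4 library 1, 17 of the 25 were at 0 in all 3 control libraries, and 6 were above 0 in CCl4 library 1 alone. These 6 were the checkpoint kinases Bub1, Bub1b and Ttk, the spindle motor Kif11, the phosphatase Cdc25c and the kinetochore protein Cenpf, at 1.02 to 2.42 FPKM. Stmn1 (stathmin, which takes microtubules apart) was the most abundant, at 4.15, 3.19 and 2.66 FPKM in the controls, 6.30 and 6.95 with the diet, 68.0 and 5.22 with CCl4 and 10.8 with both. The treated libraries were all above the controls, and CCl4 library 1 was 6.30 times the next highest library. Cdca3, a trigger of mitotic entry, was 0.663, 0.682 and 0.548 FPKM in the controls, 2.65 and 0.946 with the diet, 26.3 and 1.28 with CCl4 and 2.08 with both.

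Birc5 (survivin), a subunit of the chromosomal passenger complex, was 0, 0.321 and 0 FPKM in the controls, 1.07 and 1.10 with the diet, 20.8 and 1.153 with CCl4 and 2.29 with both. Ube2c, the ubiquitin-conjugating enzyme of the anaphase-promoting complex, was 0, 0.330 and 0 FPKM in the controls, 0.825 and 0.979 with the diet, 18.8 and 1.05 with CCl4 and 1.43 with both. Cdc20, the activator of that complex, was 0 in all 3 controls, 0.724 and 0.375 FPKM with the diet, 14.4 and 0.605 with CCl4 and 1.11 with both. Outside CCl4 library 1 these 3 genes were highest in the library that had both treatments. The proliferation marker Mki67 (Ki-67) was 0 in all 3 controls, 0.520 and 0.294 FPKM with the diet, 7.40 and 0 with CCl4 and 0.713 with both. Top2a, the topoisomerase that untangles replicated chromosomes, was 0 in the controls, 0.504 and 0.354 FPKM with the diet, 9.41 and 0 with CCl4 and 0.605 with both. Mki67 and Top2a thus read above 0 in every library of the western diet and in only 1 of the 5 libraries of the normal diet. Their western diet values, 0.294 to 0.713 FPKM, were near the lowest value listed. Other mitotic genes differed, since Plk1, Ccnb1, Bub1 and Kif11 were at 0 in both western diet + oil libraries.

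Cdk1, the kinase of mitotic entry, was 0 in the controls, 0.416 and 0 FPKM with the diet, 6.87 and 0.501 with CCl4 and 0.730 with both. Of its partners, Ccna2 reached 8.75 FPKM in CCl4 library 1, Ccnb1 5.85 and Ccnb2 11.9, against 0.494, 0 and 0.482 in library 2. The kinases Aurka, Aurkb and Plk1 were at 8.16, 5.14 and 6.30 FPKM in library 1 and at 0.888, 0 and 0 in library 2. The other mitotic genes were Cdca8, a partner of Birc5 in the passenger complex, the motor Kif20a, and the spindle proteins Tpx2, Prc1 and Nusap1. They ran from 4.69 (Nusap1) to 6.72 (Cdca8) FPKM in library 1, and of them only Cdca8 was above 0 in library 2, at 0.958.

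Compared by role, the excess of CCl4 library 1, taken as a ratio, grew from G1 to mitosis. The ratio to the highest of the other 7 libraries had a median of 1.32 over the 8 G1 genes (0.776 to 2.45), 2.72 over 13 S phase genes (1.95 to 7.33) and 11.3 over 19 mitotic genes (5.48 to 19.8), with genes at 0 elsewhere left out. The 3 ranges overlapped only between G1 and S and between S and mitosis. The ratio depends on the level elsewhere. For Plk1, at 19.8, the highest other library was at 0.319 FPKM, near the lowest value listed, whereas for Stmn1, at 6.30, it was at 10.8. Against library 2 alone the medians were 1.54 for 8 G1 genes, 4.55 for 13 S phase genes and 17.8 for 10 mitotic genes. Summed over a role, the 3 control libraries held 29.2, 27.8 and 21.3 FPKM of G1 genes, the diet libraries 48.0 and 51.5, the CCl4 libraries 77.0 and 46.4, and the library with both 50.4. The S phase sums were 28.9, 26.5 and 22.8 FPKM in the controls, 36.8 and 43.4 with the diet, 157 and 40.1 with CCl4 and 34.1 with both. For the 25 mitotic genes the sums were 5.71, 6.08 and 4.74 FPKM in the controls, 17.3 and 14.3 with the diet, 259 and 12.6 with CCl4 and 27.3 with both. In all 3 roles each treated library exceeded each control library, and without CCl4 library 1 the largest mitotic sum was that of western diet + CCl4. These are sums of the values as deposited. In those values 41.8% of all genes tested had both normal diet + CCl4 libraries above all 3 controls. For both western diet + oil libraries the share was 40.7%.

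**Figure D2:**
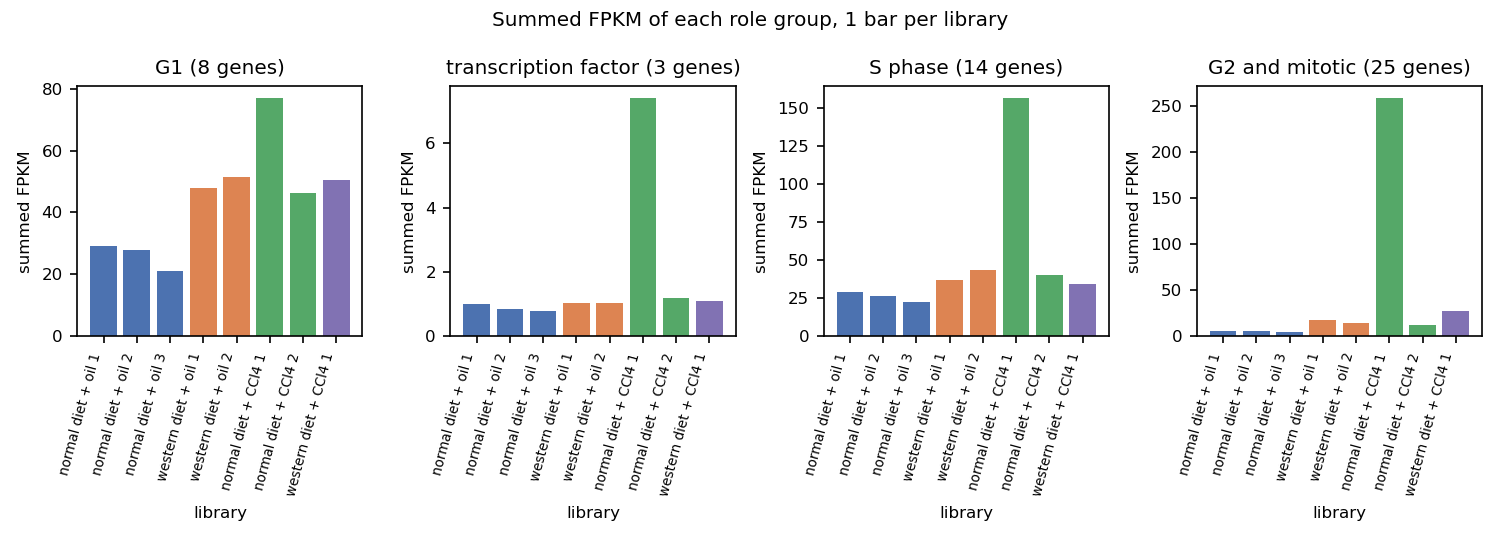
Summed FPKM of the genes of each role in each library, 1 bar per library, with separate linear axes from 0. The G1 bars of the treated libraries lie between 46.4 and 77.0, whereas the mitotic bar of normal diet + CCl4 library 1 reaches 259 and those of the other treated libraries 12.6 to 27.3.

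At least 2 times the highest other library was reached in CCl4 library 1 by 23 of the 29 genes tested, against a background of 1.17% of the 11514 genes (135 genes). The 23 were all 9 mitotic genes tested, 11 of 12 S phase genes, 2 of 7 G1 genes and E2f1. After median-of-ratios scaling of the libraries the count was 21 of 29, against 0.764% of all genes tested. Library 1 was singled out on these same values. The filter described next kept most of the mitotic genes tested, and some S phase and G1 genes, through treated libraries only. The counts therefore describe that library and are no test. Library 1 had the largest scaling factor, 1.20, where the others ran from 0.840 to 1.08.

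Differences between groups were tested with limma on log2(FPKM + 1), in genes with at least 1 FPKM in at least 2 libraries. That filter kept 29 of the 50 genes (7 G1, 1 transcription factor, 12 S phase, 9 mitotic). The 21 others, with 16 of the 25 mitotic genes among them, passed the level in at most 1 library and have no test. Apart from Stmn1 the mitotic genes tested passed through treated libraries only, as did Ccnd2, Ccne1, Cdt1 and Mcm2 to Mcm6. Counts over the 29 are therefore not counts over the programme. The filter favours genes higher in treated libraries, so counts of the 29 above the controls are descriptions and no test. The comparisons against normal diet + oil all rest on that group's 3 libraries and so are not independent.

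CCl4 on the normal diet raised 1 of the 29 genes, Ccnd1, and lowered 0. Of all genes tested, 1.02% rose and 0.4% fell. The Ccnd1 change was 2.47 ± 0.40 (SE) on the log2(FPKM + 1) scale, with limma adjusted p = 0.0340, from 2.44 ± 0.818 FPKM (SD, n = 3) in the controls to 20.1 ± 13.7 (SD, n = 2). The call was lost with no filter, with scaling, with the replicate block, with the compared groups alone, and when any 1 oil library or CCl4 library 1 was left out, with adjusted p from 0.00498 to 0.158 over 14 alternatives. All 29 fold changes were above 0, with medians of 0.53 in G1, 1.10 in S phase and 2.27 in mitosis, against 0.26 over all genes tested. At unadjusted p below 0.05 limma gave 24 of the 29, against 22.8% of all genes tested, of which the largest were Birc5 (2.64 ± 0.79 SE, adjusted p = 0.132) and Ube2c (2.53 ± 0.77 SE, adjusted p = 0.137).

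These counts turned on which CCl4 library was used. Without library 2, so that library 1 stood alone and was assumed to vary like the other groups, 24 of 28 genes rose, against 9.28% of all genes tested. They were Ccnd1, Cdk4, E2f1, the 12 S phase genes and the 9 mitotic genes. Without library 1, 0 of 23 genes rose, against 0.0625% of all genes tested, Ccnd1 was 1.75 ± 0.31 (SE) with adjusted p = 0.127, and the median of the 23 was 0.36, against 0.17 over all genes tested. Mcm2, Mcm3 and Mcm5 then stood at 0.10 ± 0.23, 0.11 ± 0.25 and 0.11 ± 0.27 (SE), so that with library 2 alone no difference in them was detectable. Mcm6 and Mcm7 in library 2, at 1.09 and 3.06 FPKM, lay above all 3 controls as deposited. As deposited, both CCl4 libraries lay above all 3 controls for 24 of the 29 genes, against 41.8% of all genes tested. The 24 held all 7 G1 genes. After scaling the count was 19, against 15.2%, without Ccnd3 and Cdk2 of G1 and without Pcna, Mcm6 and Mcm7.

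**Figure D3:**
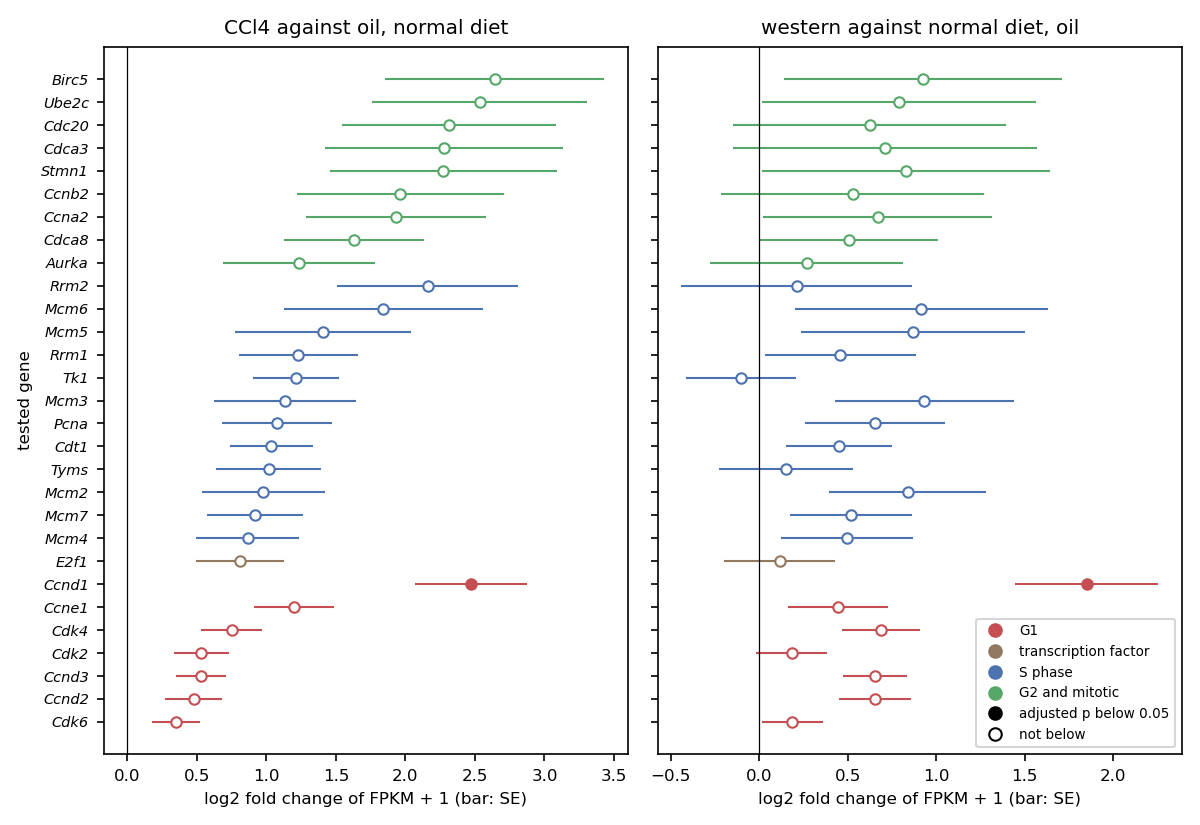
Log2 fold change of FPKM + 1 (points) with its SE (bars) for the 29 genes tested, by role, for CCl4 against oil on the normal diet (left) and for western against normal diet with oil (right). Filled points have an adjusted p below 0.05, which holds for Ccnd1 alone in each panel. In both panels the widest SE bars are those of the mitotic genes Cdca3 (0.86) and Stmn1 (0.82).

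The western diet, given with oil, also raised Ccnd1 and lowered 0 of the 29 genes, where 3.81% of all genes tested rose and 0.599% fell. Ccnd1 changed by 1.85 ± 0.40 (SE, limma adjusted p = 0.0465), to 11.3 ± 2.77 FPKM (SD, n = 2). The next were Ccnd3 (0.65 ± 0.18 SE, adjusted p = 0.0800), Ccnd2 (0.65 ± 0.20 SE, adjusted p = 0.1104) and Cdk4 (0.69 ± 0.22 SE, adjusted p = 0.114), all G1 genes and the only others of the 29 with an unadjusted p below 0.05. That makes 4 of the 29, against 23.3% of all genes tested, and is not read as a difference from the background. Medians were 0.65 in G1, 0.51 in S phase and 0.67 in mitosis, against 0.22 over all genes tested. Ccnd1 was called in 4 of 14 alternatives, with adjusted p from 0.00707 to 0.365. Markers of other cells moved with the diet too. Of 12 macrophage markers 10 rose (median 2.51), and their sum was 82.8, 169 and 162 FPKM in the controls and 634 and 1283 with the diet. Of 9 endothelial markers 3 rose, and of 10 stellate cell and myofibroblast markers 1. Of 5 erythroid markers tested, Hba-a1, Hba-a2 and Hbb-bs rose, whereas Hbb-bt and Alas2 were not called. The erythroid list summed to 230, 294 and 350 FPKM in the controls and to 928 and 554 with the diet. Among 6 neutrophil markers tested only S100a9 rose. The part of these cells in the diet values was not tested.

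The spread in this fit included the gap between the 2 CCl4 libraries, and without that gap more genes passed. With the compared groups alone, the filter saw the oil libraries only, and Birc5, Mcm2, Mcm3 and Mcm5 passed it through the diet libraries alone. The count from that fit is therefore a description and no test. In it, 7 of 19 genes rose on the western diet, against 9.16% of all genes tested. They were Ccnd1, the helicase subunits Mcm2 (0.84 ± 0.18 SE, adjusted p = 0.0334), Mcm3 (0.93 ± 0.19 SE, adjusted p = 0.0291) and Mcm5 (0.87 ± 0.21 SE, adjusted p = 0.0453), Pcna (0.65 ± 0.14 SE, adjusted p = 0.0357), Birc5 (0.92 ± 0.18 SE, adjusted p = 0.0261) and Stmn1 (0.83 ± 0.18 SE, adjusted p = 0.0357). With CCl4 library 1 alone left out, 7 of 23 rose, against 8.85%, with Ube2c in place of Mcm5, which fell just short of the threshold. Tk1 stood at -0.10 ± 0.24 (SE) and E2f1 at 0.11 ± 0.14 (SE) in the fit of the compared groups, neither past the threshold. Both diet libraries exceeded all 3 controls for 25 of the 29 genes, against 40.7% of all genes tested, and for 22 after scaling, against 20.8%. The 4 that overlapped as deposited were Cdk2, Rrm2, Tk1 and Tyms.

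With both treatments, limma called 0 of the 29 genes, against 0.929% of all genes tested in either direction, and 3 had an unadjusted p below 0.05, against 15.3% of all. These were Ccnd1 (1.87 ± 0.51 SE, adjusted p = 0.148), Ccnd3 (0.77 ± 0.23 SE, adjusted p = 0.171) and Ccnd2 (0.77 ± 0.26 SE, adjusted p = 0.221). The group is 1 library, assumed to vary like the others. Medians were 0.61 in G1, 0.48 in S phase and 1.08 in mitosis. Without CCl4 library 1 in the fit, Birc5 (1.58 ± 0.23 SE, adjusted p = 0.0251), Stmn1 (1.46 ± 0.23 SE, adjusted p = 0.0285) and Ccnd1 (adjusted p = 0.0319) rose, 3 of 23 genes against 3.35% of all genes tested.

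Adding CCl4 to the western diet changed 0 of the 29 genes by limma, against 0.0434% of all genes tested, with 0 at an unadjusted p below 0.05 (4.19% of all) and a median of 0.07. Fold changes ran from -0.58 to 0.68. The 9 mitotic genes had a median of 0.35 and were all above 0, but Aurka, Ccna2, Cdc20, Cdca3 and Ube2c turned below 0 with the replicate block, and Cdca3 also without western diet + oil library 2. The 12 S phase genes had a median of -0.05, with 4 above 0. Set directly against western diet + oil, normal diet + CCl4 differed in 0 of the 29, against 0.617% of all genes tested, with 3 at an unadjusted p below 0.05 (11.1% of all). Medians there were 0.16 in G1, 0.56 in S phase and 1.44 in mitosis, and they rested on CCl4 library 1. Without it the median of the 23 genes tested was -0.10, with 9 above 0, and 12 of the 23 changed sign, among them Mcm2, Mcm3, Mcm5, Mcm6, Mcm7, Pcna and Stmn1. Without library 2 the median of the 28 genes tested was 1.61, against 0.13 over all genes tested. That fit leaves library 1, singled out on these same values, alone in its group, so it describes that library and is no test.

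The interaction asks whether the CCl4 difference depends on diet. The western diet + CCl4 group is 1 library. With either normal diet + CCl4 library left out, both CCl4 groups are 1 library. The residual spread then comes from the oil groups alone. It leaves out the gap between the normal diet + CCl4 libraries, 20.8 against 1.153 FPKM for Birc5. Calls from those fits therefore cannot decide whether the CCl4 difference depends on diet, and no conclusion is drawn from them. Results with all 8 libraries come first. Limma called 0 of the 29 genes, against 0.0608% of all genes tested, and 3 had an unadjusted p below 0.05 (9.78% of all). All 29 estimates were below 0, that is, a smaller CCl4 difference on the western diet, with a median of -1.28 against -0.29 over all genes tested. Ccnd1 had the smallest adjusted p, 0.365, at -2.45 ± 0.68 (SE). Without CCl4 library 2, 16 of 28 genes were called lower, against 1.3% of all genes tested, among them Birc5 (-3.65 ± 0.32 SE, adjusted p = 0.0212), Pcna (-2.41 ± 0.26 SE, adjusted p = 0.0317) and Ccnd1 (-3.16 ± 0.46 SE, adjusted p = 0.0374). Without library 1, 0 were called, the median was -0.40, and Aurka and Stmn1 turned positive.

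Of 10 kinase inhibitors and pocket proteins, which hold the cycle back, 7 were tested, and 2 rose with CCl4, 1 with the diet and 1 with both treatments. Cdkn2c (p18), which blocks Cdk4 and Cdk6, was 1.35, 1.39 and 1.32 FPKM in the controls, 2.50 and 3.69 with the diet, 9.72 and 6.25 with CCl4 and 6.79 with both. Unlike the mitotic genes it was high in both CCl4 libraries, and it rose with CCl4 (1.91 ± 0.21 SE, limma adjusted p = 0.00811) and with both treatments (1.73 ± 0.26 SE, adjusted p = 0.0335). The CCl4 call held in 11 of 14 alternatives, with adjusted p up to 0.0611, and that for both treatments in 5 of 12, up to 0.222. Cdkn1b (p27), an inhibitor of E and A cyclin kinases, was 2.28, 2.50 and 2.46 FPKM in the controls, 3.44 and 3.13 with the diet, 5.21 and 4.58 with CCl4 and 3.93 with both. It rose with CCl4 (0.79 ± 0.14 SE, adjusted p = 0.0432) in 4 of 14 alternatives as well.

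Cdkn2a, the locus of p16 and p19Arf, was listed at 0 in all 3 controls, 0.875 and 1.49 FPKM with the diet, 0.296 and 0 with CCl4 and 1.17 with both. It rose with the diet (1.11 ± 0.22 SE, adjusted p = 0.0371), and the size of that estimate depends on the added 1 FPKM, since the controls are at 0. The call held in 3 of 11 alternatives. Cdkn1a (p21), the p53-induced inhibitor, was 2.94, 1.92 and 5.25 FPKM in the controls, 14.0 and 12.3 with the diet, 15.8 and 3.10 with CCl4 and 13.2 with both. It read high in 4 of the 5 treated libraries and inside the control range in CCl4 library 2, with adjusted p of 0.291 for CCl4 and 0.109 for the diet. Cdkn2d (p19) was 1.38, 1.36 and 0.734 FPKM in the controls, 1.75 and 2.07 with the diet, 4.88 and 1.59 with CCl4 and 3.31 with both. Cdkn1c (p57) was 0 in the controls and 0.496 to 1.18 FPKM in the treated libraries. Cdkn2b read above 0 in CCl4 library 1 alone, at 0.256. Of the pocket proteins, Rb1 lay between 0.949 and 1.38 FPKM and Rbl2 between 1.92 and 4.33 in all libraries, and Rbl1 was 0.973 in CCl4 library 1, 0.404 in western diet + oil library 1 and 0 elsewhere.

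**Figure D4:**
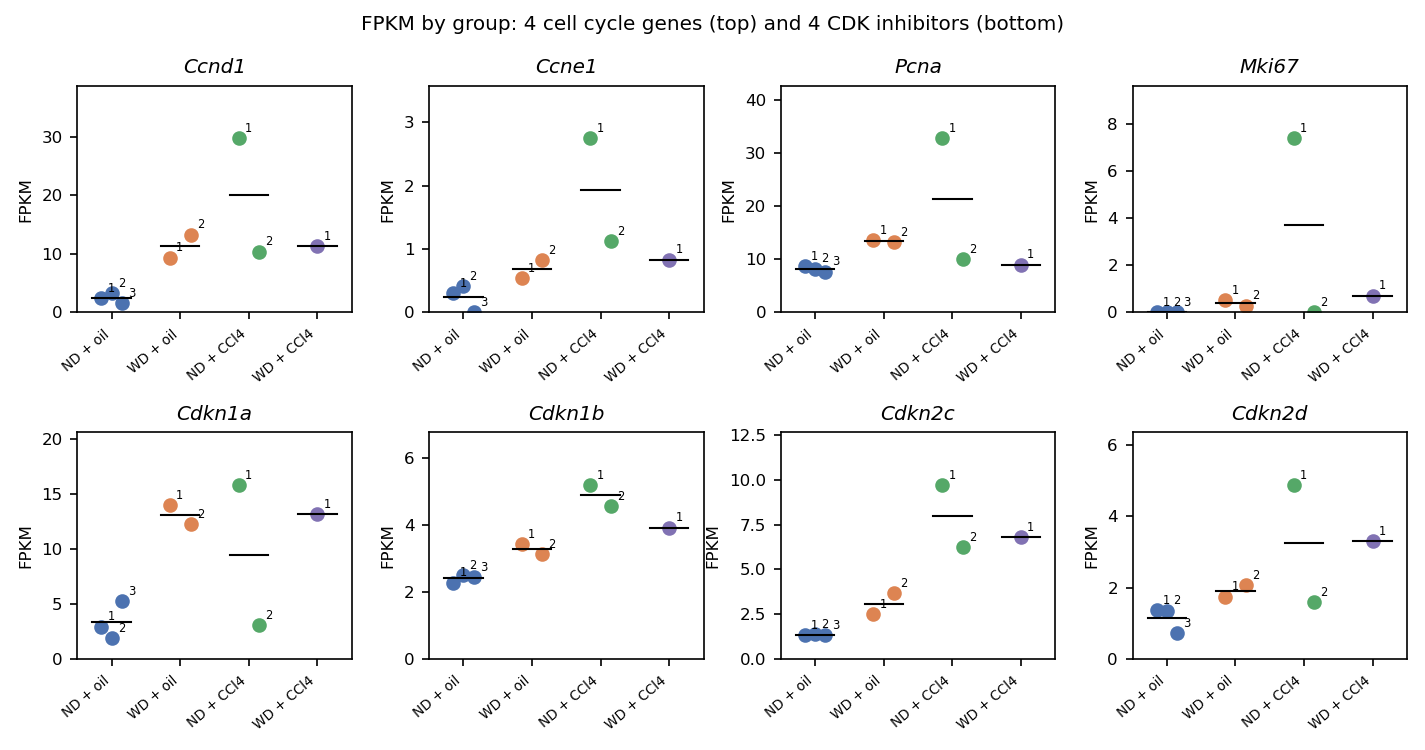
FPKM by group for Ccnd1, Ccne1, Pcna and Mki67 (top) and for the kinase inhibitors Cdkn1a, Cdkn1b, Cdkn2c and Cdkn2d (bottom). Points are libraries with their replicate number, lines are group means, axes start at 0, and ND and WD stand for normal and western diet. Mki67 is at 7.40 in CCl4 library 1 and 0 in library 2, whereas Cdkn2c is at 9.72 and 6.25.

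Genes of the same pathways outside the 50 gave a similar picture by library and few calls. Of all genes tested, 37.4% peaked in CCl4 library 1, and by limma 22.8% (CCl4) and 23.3% (diet) had an unadjusted p below 0.05. The counts below at that p for replication genes and for E2F and MuvB factors are not read as a difference from these shares. Of 38 other replication genes, 33 were highest in CCl4 library 1. Of their 29 tested, 0 were called with CCl4 or with the diet (9 and 4 at an unadjusted p below 0.05), and 1, Mcm10, fell with both treatments (-1.65 ± 0.29 SE, adjusted p = 0.0495). Mcm10, a replication initiation factor, was 32.5, 26.8 and 23.1 FPKM in the controls, 14.9 and 14.0 with the diet, 20.6 and 31.8 with CCl4 and 7.96 with both. Unlike Mcm2 to Mcm7, it was lowest in the libraries of the western diet. That call held in 3 of 12 alternatives. Of 40 other mitotic genes, 39 were highest in CCl4 library 1, the exception being Pttg1 (securin), which peaked in a control library, and 0 of 12 tested were called with CCl4 (10 at an unadjusted p below 0.05). Of 16 other E2F and MuvB factors, 12 were highest there and 0 of 10 tested were called with CCl4 (4 at an unadjusted p below 0.05).

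Of 15 p53 targets, 1 of 13 tested rose with the diet, the antiproliferative Btg2 (2.71 ± 0.44 SE, adjusted p = 0.0246, held in 8 of 14 alternatives), at 4.54, 1.95 and 1.15 FPKM in the controls, 13.1 and 31.5 with the diet, 4.39 and 4.31 with CCl4 and 6.17 with both. Of 22 liver mitogens, receptors and early genes, 1 of 12 tested rose with the diet. This was Tgfb1 (1.54 ± 0.31 SE, adjusted p = 0.0365, held in 6 of 14 alternatives), which restrains hepatocyte growth. Hgf, the ligand of Met, was 1.62 FPKM in CCl4 library 1, 0.367 and 0.296 with the diet and 0 elsewhere, and Egf, Areg, Ereg, Il6, Osm and Tnf were at 0 in all 8.

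Some markers of other liver cells, but not all, were highest in the same library, where 37.4% of all genes tested peaked. The summed level of 10 stellate cell and myofibroblast markers was 185 FPKM in CCl4 library 1 against 30.3 to 112 elsewhere, with 9 of the 10 highest there, among them Col1a1 (16.4 FPKM) and Acta2 (4.27). The 6 cholangiocyte markers summed to 459 FPKM there, of which Spp1 gave 455, whereas Krt7 and Krt19 were 0.286 and 0.832 and Cftr was 0. The 9 endothelial markers summed to 96.2 FPKM there, against 36.2 to 89.2 elsewhere. Of the 9, 3 were highest there, which is not above the share of all genes tested. The 12 macrophage markers summed to 536 there, to 634 and 1283 in western diet + oil, and none was highest in CCl4 library 1. The 8 hepatocyte markers summed to 57247 FPKM in that library, above the 31657 to 50417 of the others, but only 1 of the 8 was highest there. T and NK cell markers summed to 5.60 FPKM there with Cd3d at 0 and were higher in western diet + oil library 2, at 6.66. B cell markers summed to 4.35 there with Ms4a1 at 0, and were higher in all 3 western diet libraries, at 4.88, 5.09 and 5.89. The part of stellate cells, endothelial cells and macrophages in the cell cycle values was not tested. In western diet + CCl4 the neutrophil markers summed to 486 FPKM, against 1.77 to 44.2 in the other libraries, and their part in its mitotic sum was not tested.

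Of the 50 genes, 29 overlap another annotated gene, and for 15 that neighbour was above 0 in some library. Neighbours on the opposite strand reached 159 FPKM for Cdk4 (Tspan31), 46.9 for Mcm7 (Cops6), 40.1 for Tk1 (Afmid) and 21.0 for Cdc20 (Elovl1). The kit keeps the strand, but the sources used here do not say whether the counting used it, so the levels of these genes are less certain. The neighbour of Ccnd1, LTO1, reached 3.78 FPKM.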

How the data were processed

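Liver RNA in 8 libraries was prepared with a stranded mRNA kit, per the labels' protocols. FPKM values per gene were deposited by the authors. The GRCm38 build, HISAT2 2.2.1, StringTie 2.1.0, cutadapt 3.7 and FastQC 0.11.9 are named, per the submitters' processing notes. The sources used here do not give their settings or order. No counts were used, so depth is unknown and no counting interval is given.

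Libraries were grouped by their labels. Log2(FPKM + 1) was fitted with limma 3.58.1 (R 4.3.3; group means, all 8 libraries, eBayes with a trend, 4 residual degrees of freedom) over 11514 genes with at least 1 FPKM in at least 2 libraries. Tests were two-sided with Benjamini-Hochberg adjustment within each contrast, and a call is an adjusted p below 0.05. The fit was tested on simulated data. No 2 libraries held identical values. Alternatives were a pseudocount of 0.1, no filter, the compared groups alone, robust eBayes, a block on the replicate number, leaving out each library and median-of-ratios scaling.

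Values in every library are given for called members, the 5 most abundant of each role, the transcription factors and 5 set markers, and for kinase inhibitors. The members and lists were chosen with earlier results of these data known.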

Additional observations from a re-analysis of the deposited data

How the results depend on the processing

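The counts of calls depended on the libraries used. Over leaving out 1 library, genes called ranged from 22 to 1165 (CCl4 on the normal diet, 164 with all), 4 to 1159 (western diet, 508), 36 to 486 (both treatments, 107), 1 to 16 (CCl4 on the western diet, 5), 1 to 122 (normal diet + CCl4 against western diet + oil, 71) and 0 to 168 (interaction, 7). Of the 50 genes, those called higher ranged from 0 to 24, 0 to 9, 0 to 6, 0 to 0, 0 to 15 and 0 to 0 in the same order, and those called lower in the interaction from 0 to 16. The highest counts came without normal diet + CCl4 library 2, except the 122, which came without normal diet + oil library 3. Leaving out library 2 keeps library 1, singled out on these same values, alone in its group, so those counts are no test.

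With no filter 18, 121, 171, 69, 6 and 17 genes were called in the 6 comparisons, in the same order, with 0 of the 50 among those for CCl4 or for the diet. Median-of-ratios scaling left 91 (CCl4), 283 (diet) and 0 (interaction) genes and 0 of the 50 in each. It took the median of all genes tested from 0.26 to 0.00029 for CCl4 and from 0.22 to -0.0020 for the diet, and that of the tested members from 1.21 to 1.00 and from 0.62 to 0.43. The share of calls that were higher went from 71.95% to 40.7% for CCl4 and from 86.4% to 74.9% for the diet, and Cdk2 and E2f1 turned below 0 for the diet. A pseudocount of 0.1 gave 43 (both), 0 (CCl4 on the western diet) and 3 (interaction) genes, and 0 of the 50 for the diet, as did robust eBayes. The compared groups alone gave 98 genes and 0 of the 50 for CCl4, and 1104 genes and 7 of the 50 for the diet.

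With the replicate number as a block, 49, 32, 6, 0 and 2 genes were called for CCl4, the diet, both, CCl4 on the western diet and the interaction, and 0 of the 50 in the CCl4 and diet comparisons. Between same-numbered libraries, deviations from the group means had r from -0.279 to -0.0140. In a group of 2 libraries these deviations mirror each other. The r values are therefore not independent and cannot settle whether the numbers mark a block. No label ties the numbers to a batch or animal, so the numbers name libraries only. The causes of these shifts were not tested. With 1 to 3 libraries a group and unknown depth, differences in genes near the lowest listed value could not be detected.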
